A study of Mus musculus with 5 samples.

Results

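The cells compared were ependymal cells from the wall of the midbrain aqueduct and cells from the wall of the lateral ventricle of the adult mouse brain. Midbrain cells were chosen by their measured level of the cilium gene Ccdc153, at 1000 CPM (reads of a gene scaled to a common total per cell) or more, a level that 317 of the 547 midbrain cells reached. All 240 lateral ventricle cells were members, so the comparison used 557 of the 1473 cells of the series. Both samples came from 3-month-old FoxJ1CreERT2 R26TdT mice, which carry an inducible Cre recombinase (CreERT2) driven by the Foxj1 promoter and a tdTomato reporter at the Rosa26 locus. Foxj1 is the master regulator of motile cilia, so cells were labelled through a ciliary gene in both regions. The Foxj1 line numbered 10 animals, 5 females and 5 males, and which animal a well held was not recorded in the labels. Single cells were sorted into 96-well plates and sequenced with Smart-seq2, which copies whole transcripts and keeps neither strand nor molecular identifiers. Cells of the third ventricle and the spinal cord came from the same line, and a line with Cre under Nkx2-2 gave other midbrain cells.

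Ependymal cells line the brain ventricles and the central canal of the spinal cord, and their motile cilia move cerebrospinal fluid. They descend from the radial glia of the embryonic neural tube, which is divided along its length and from back to belly by transcription factors of the Emx, Irx, Nkx and Pax families among others. The subcommissural organ is a patch of specialised ependyma at the entrance of the aqueduct that secretes SCO-spondin, the product of Sspo.

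With 1 sample per region, no test between regions was possible and no p-value is given. Levels are CPM of reads summed over cells, with exact Poisson 95% intervals. Shares of cells have exact Clopper-Pearson 95% intervals. Both kinds cover counting error only. Spread within a sample was read from blocks of 96 consecutive cell numbers, 7 in the midbrain with 37 to 51 member cells and 3 in the lateral ventricle with 79 to 81. Gated midbrain cells had 255868139 reads in all and lateral ventricle cells 180906553. Median reads per cell were 691446 and 715589, median detected genes 4866 and 5435.5, and mitochondrially encoded genes took 5.45% and 5.44% of reads. Midbrain cells stem from 2 sequencing projects and lateral ventricle cells from the first of them alone.

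Both groups carried the ependymal markers. Ccdc153 itself, which chose the midbrain cells, had a median of 3519 CPM in them and 3715 CPM in the lateral ventricle, where 239 of 240 cells would also have passed the gate. Tmem212, an ependymal membrane protein gene, was at 3568 CPM in gated midbrain cells and at 3586 CPM in lateral ventricle cells. Foxj1 stood at 590 and 491 CPM. Since the gate favours ciliated cells in the midbrain, these levels describe the cells and test nothing. Genes that define neurons, oligodendrocyte precursors, microglia and red blood cells summed to 8.17 CPM or less in the midbrain and 8.25 CPM or less in the lateral ventricle. Only 5 of 7 neuronal, 4 of 6 microglial and 2 of 5 red blood cell markers were in the table, so these sums leave the others out. The microglial sum was nearly all P2ry12, while Cx3cr1 had 0 reads in both groups and C1qa 1 read in the midbrain and 0 in the lateral ventricle. Oligodendrocyte markers summed to 88.9 and 84.5 CPM, most of it Mbp, a myelin protein gene read in 33.8% of midbrain and 36.2% of lateral ventricle cells. Mural markers, of which 2 of 6 were in the table, summed to 21.3 and 0.105 CPM, nearly all of the former Vtn. Of 5 endothelial markers 1, Kdr, was in the table. Kdr stood at 7.96 CPM in the midbrain (5.68% of cells) and 15.9 CPM in the lateral ventricle (16.7% of cells), with overlapping blocks. Choroid plexus markers, 4 of 6 in the table, summed to 583 CPM in the midbrain (blocks 459 to 675) and 463 CPM in the lateral ventricle (blocks 419 to 528). Of the 3 tested, 1 (Ttr) was called for the midbrain, beside 0.682% of all genes tested. Ttr was 3.90-fold higher there, and 2.09-fold higher without the 16 Sspo-high cells described below. The part of these cell types in the results was not tested. The 8 astrocyte markers, several of which ependymal cells share, summed to 1737 CPM in the midbrain (blocks 1168 to 2215) and 2340.5 CPM in the lateral ventricle (blocks 1680 to 2669). All 8 were tested, and 1 (Aldoc) was called for the lateral ventricle at 2.42-fold, beside 0.75% of all genes tested. Slc1a3 was 2.28-fold higher there with overlapping blocks, and the remaining 6 were within 2-fold. The median log2 ratio of the 8 was -0.34.

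The gate left a small set of secretory cells among the midbrain members. Of the 317 gated cells, 16 (5.05%) had between 4788 and 23907 CPM of Sspo. The other 301 had at most 484 CPM, with a median of 3.05 CPM. No lateral ventricle cell reached 1000 CPM of Sspo. The 5 cells just inside the gate, with 1022 to 1126 CPM of Ccdc153, all belonged to this set. The 5 just outside, with 901 to 971 CPM of Ccdc153, had 1992 to 19484 CPM of Sspo. In all, 27 gated cells lay between 1000 and 2000 CPM of Ccdc153, and 44 midbrain cells lay between 500 and 1000 CPM. Results below are given with all gated cells, and also without those 16 where a call changed or a called ratio moved by more than 1.5 times.

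Few genes separated the regions. A gene was called where its ratio of levels was at least 2-fold, the higher group had at least 20 CPM and a read in at least 20% of its cells, and no block of the higher group fell to the level of any block of the other. Of 7335 genes with enough reads to be tested in this way, 50 (0.682%) were higher in the midbrain and 55 (0.75%) were higher in the lateral ventricle. Without the 16 Sspo-high cells, 39 of 7324 genes (0.532%) were higher in the midbrain, 36 of them among the 50. By the same rule 54 (0.737%) were higher in the lateral ventricle, 46 of them among the 55. Leading the midbrain genes were the positional factor Nkx6-1 and the secretory genes of the Sspo-high cells, and leading the lateral ventricle genes were Six3 and its antisense neighbour Six3os1. Without the condition on blocks the counts were 91 (1.24%) and 96 (1.31%).

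**Figure D1:**
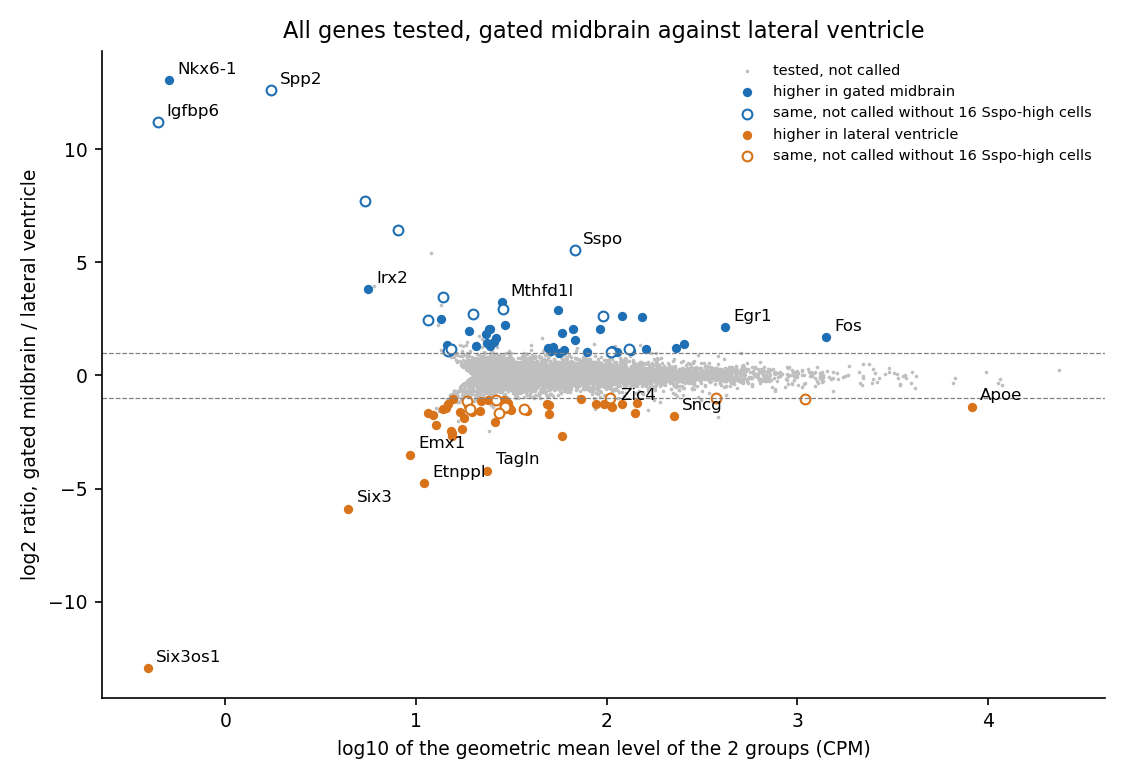
Each point is a gene tested, with the mean level of the 2 groups (log10 CPM) on the x axis and the log2 ratio of gated midbrain over lateral ventricle on the y axis; dashed lines mark 2-fold. Blue points are the 50 genes called higher in the midbrain and orange points the 55 called higher in the lateral ventricle; open circles lost their call without the 16 Sspo-high cells, among them Spp2, Igfbp6 and Sspo.

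Several transcription factors that pattern the embryonic forebrain, Six3 and Emx1 among them, were higher in lateral ventricle cells. Of 24 such genes considered, 9 reached 10 CPM in either group, and 6 of these 9 exceeded 2-fold in favour of the lateral ventricle and 0 in favour of the midbrain. The median log2 ratio of the 9 was -3.50, beside 0.03 over all 9977 genes with 10 CPM, of which 2.29% were at least 2-fold higher in the lateral ventricle and 2.79% in the midbrain. Of the 5 tested, 2 (Six3 and Emx1) met the full rule for a call, beside 0.75% of all genes tested. The rest of the 9 were read in fewer than 20% of cells, stayed under 20 CPM or were within 2-fold.

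Six3 (chr17:85613608-85629302 on GRCm38, plus strand), which specifies the anterior forebrain and eye field, had levels of 39.8, 24.4 and 37.1 CPM in the 3 lateral ventricle blocks. Its levels in the 7 midbrain blocks had a median of 0 and a highest value of 2.29 CPM. Over all cells this was 34.0 CPM (33.1 to 34.8) in the lateral ventricle and 0.575 CPM (0.485 to 0.675) in the midbrain, a 59.1-fold difference (75.8-fold without the Sspo-high cells). Six3 reads were found in 41.7% of lateral ventricle cells (35.4 to 48.2) and 0.946% of midbrain cells (0.196 to 2.74). With every cell thinned to 100000 reads, the shares were 39.2% and 0.946%. Six3os1 (chr17:85600651-85618398, minus strand), a noncoding transcript that overlaps the start of Six3, had 5598 reads in the lateral ventricle and 1 in the midbrain. Its ratio was 7918 with a counting interval of 1420 to 312780. The libraries carry no strand, so reads in the overlap of these 2 genes could not be assigned.

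Emx1 (chr6:85187438-85204462, plus strand), a factor of the dorsal telencephalon, had levels of 25.7, 41.8 and 26.3 CPM in the lateral ventricle blocks and at most 8.84 CPM in a midbrain block. It was read in 25.8% of lateral ventricle cells and 2.84% of midbrain cells. One midbrain cell held 45.9% of the midbrain Emx1 reads. Dmrt3, another dorsal telencephalic factor, was 14.4-fold higher in the lateral ventricle, against 1.59 CPM in the midbrain. Fezf1 and Emx2 had 0 reads in gated midbrain cells and were 939-fold and 632-fold higher in the lateral ventricle against a floor of 3 reads. Of 240 lateral ventricle cells 100 had Six3 reads and 62 had Emx1 reads, and 24 had both. Pax6, Nr2f1 and Nr2f2, which are also used outside the forebrain, were within 2-fold between the regions. Nr2f2 had 42.6 CPM in midbrain and 31.7 CPM in lateral ventricle cells, and Nr2f1 39.9 and 25.9 CPM. Pax6 had 29.4 CPM in midbrain cells, 19.3 CPM without the Sspo-high cells among them, and 28.4 CPM in lateral ventricle cells.

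Among ventral and midbrain genes, Nkx6-1, Irx2, Irx3 and Cnpy1 were called for the midbrain. Of 25 ventral and floor plate genes considered, 6 reached 10 CPM, with a median log2 ratio of 0.37. Of the 4 tested, 1 (Nkx6-1) was called, beside 0.682% of all genes tested. Boc, Slit2, Smo and Gli2, of Hedgehog and guidance signalling, were within 2-fold. Nkx6-1 (chr5:101658139-101664996, minus strand), a homeodomain factor of ventral progenitors from midbrain to spinal cord, had block levels in the midbrain of 24.0 to 60.6 CPM with a median of 43.8. In the lateral ventricle blocks it had 0, 0.0169 and 0 CPM. The totals were 12025 reads, or 47.0 CPM (46.2 to 47.8), against a single read, a ratio of 8502 with a counting interval of 1526 to 335840. Nkx6-1 was read in 20.5% of gated midbrain cells (16.2 to 25.4) and in 20.2% after thinning. This share lies at the 20% minimum, and the call was lost in 5 of 27 settings, among them the gate at 500 CPM and the omission of midbrain block 1 or block 5, while the direction held in all 27. None of the 16 Sspo-high cells contributed a read, and the midbrain cells under the gate stood at 0.0163 CPM. In spinal cord cells of the same line it reached 138 CPM, and around the third ventricle 3.81 CPM.

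Of 31 midbrain and isthmus genes considered, 13 reached 10 CPM in either group, 6 of the 13 exceeded 2-fold in favour of the midbrain and 0 in favour of the lateral ventricle, and the median log2 ratio was 0.89. Irx2, Irx3 and Cnpy1 were the 3 called of 10 tested, beside 0.682% of all genes tested. Irx2 (chr13:72628820-72634198, plus strand), an Iroquois homeobox factor, had midbrain block levels of 13.1 to 32.1 CPM with a median of 22.2. Its lateral ventricle block levels were 0, 4.58 and 0 CPM. The ratio over all cells was 14.1-fold, at 21.1 against 1.49 CPM. The 270 lateral ventricle reads came from 3 cells, and 1 cell held 55.6% of them. The midbrain level lies near the minimum of 20 CPM. The call held in 23 of 27 settings and the direction in all 27, with log2 ratios of 3.14 to 9.74. Irx3 was 2.53-fold higher in the midbrain, at 23.1 against 9.14 CPM, and its nearest blocks, at 11.2 CPM in each group, barely separated. Cnpy1, an isthmic gene known to act in FGF signalling, had midbrain blocks of 26.4 to 76.6 CPM and lateral ventricle blocks of 15.8, 6.51 and 13.0 CPM, and a ratio of 4.12. Pax3, a factor of the dorsal neural tube, had 3533 reads in the midbrain (13.8 CPM) and 0 in the lateral ventricle. Against a floor of 3 reads it was 833-fold higher but was not called, since its level was under 20 CPM and 14.2% of midbrain cells had a read. En1, a classic marker of the midbrain and hindbrain border, had 7.95 CPM in midbrain and 0.21 CPM in lateral ventricle cells, and its blocks overlapped.

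Nkx6-1 and Pax3, which mark opposite sides of the embryonic neural tube, were mostly read in different midbrain cells. Of 317 gated cells, 64 had Nkx6-1 reads alone, 44 had Pax3 reads alone, 1 had both and 208 had neither. This pair was looked at after its values were seen. Otx2, which marks forebrain and midbrain alike, was level between the regions, at 127 CPM (126 to 129) in the midbrain and 125 CPM (123 to 127) in the lateral ventricle, while the third ventricle stood at 2.28 CPM. Among the listed dorsal midline genes Zic4 and Zic1 leaned the other way. Of 18 considered, 7 reached 10 CPM, with a median log2 ratio of -1.01. At least 2-fold higher were 4 of the 7 in the lateral ventricle and 0 in the midbrain. Over all genes with 10 CPM these shares were 2.29% and 2.79%. Of the 3 tested, 1 (Zic4) was called, beside 0.75% of all genes tested. Msx1 leaned to the midbrain, at 295 against 238 CPM, within 2-fold. Zic4 had lateral ventricle blocks of 214, 141 and 154 CPM and midbrain blocks of 21.2 to 108 CPM, and was called at 2.61-fold (3.30-fold without the Sspo-high cells). Zic1 was 2.01-fold higher in the lateral ventricle with overlapping blocks. Midbrain cells under the gate held Zic4 at 438 CPM, and with every midbrain cell the log2 ratio turned to 0.36. Of 21 Hox genes considered, 16 were in the table and 0 reached 10 CPM in either group.

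**Figure D2:**
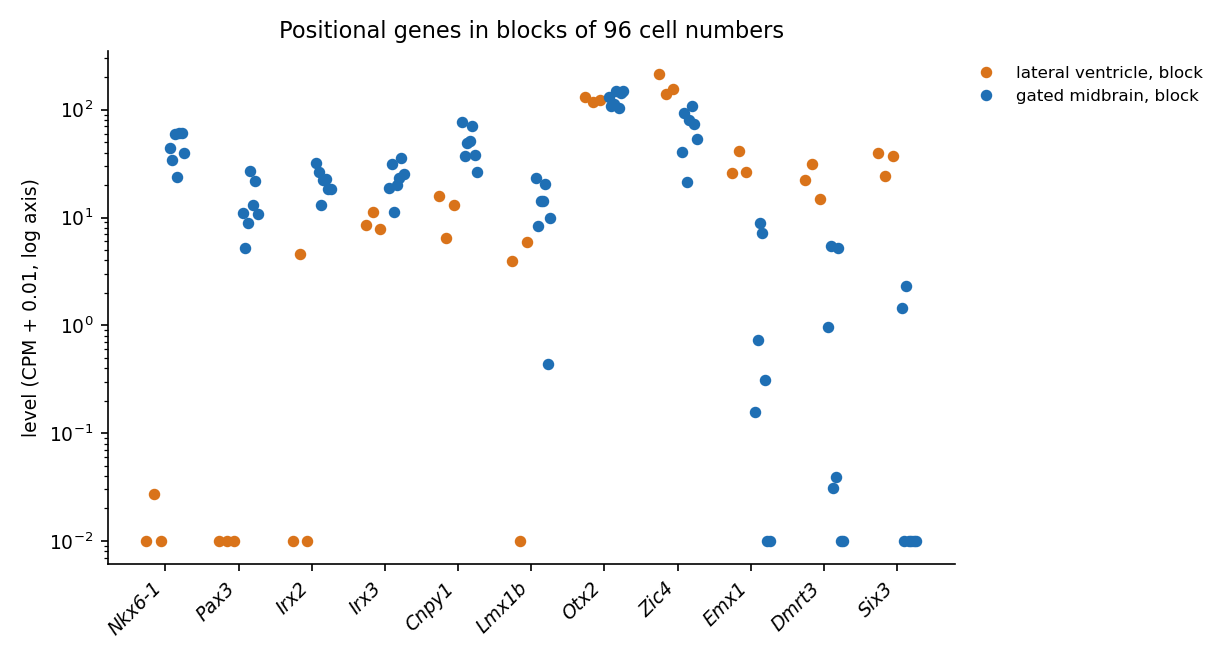
Levels of 11 positional genes (CPM + 0.01, log axis); each point is a block of 96 cell numbers, blue for gated midbrain and orange for lateral ventricle. Nkx6-1 and Pax3 are at or near 0 in the lateral ventricle blocks and Six3 is at 0 in most midbrain blocks, while Otx2 lies between 104 and 150 CPM in every block.

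The 16 Sspo-high cells set a group of secretory genes apart. Without them Spp2, Igfbp6, Spdef, Wfdc2, Sspo and Btbd17 were no longer called. These cells were chosen by Sspo, so the lost call and lower level of Sspo itself follow from that choice. Between 81.6% (Btbd17) and 96.9% (Wfdc2) of the gated midbrain reads of each came from these 16 cells. Sspo (chr6:48448229-48501250, plus strand) stood at 466 CPM over all gated cells, against 4.36, 5.86 and 21.5 CPM in the lateral ventricle blocks. Without the 16 cells it stood at 20.5 CPM, 2.06-fold above the lateral ventricle. Spp2, which encodes a secreted phosphoprotein, fell from 137 CPM to 5.48 CPM without them, against 4 reads in the lateral ventricle. Igfbp6, an insulin-like growth factor binding protein, had 0 reads in lateral ventricle cells. Against a floor of 3 reads it was 2375-fold higher with the 16 cells and 91.1-fold higher without them. The counting interval of the first ratio began at 1931. Spdef, an ETS factor of secretory epithelia, went from 78.5 to 3.19 CPM, and Wfdc2, a secreted protease inhibitor family member, from 75.4 to 2.46 CPM. The midbrain cells under the gate held the same genes at high levels, with Sspo at 8826 CPM and Spp2 at 3378 CPM. Nkx6-1, Irx2 and Mthfd1l had log2 ratios of 13.05, 3.82 and 3.23 with the 16 cells and 13.11, 3.84 and 3.27 without them.

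**Figure D3:**
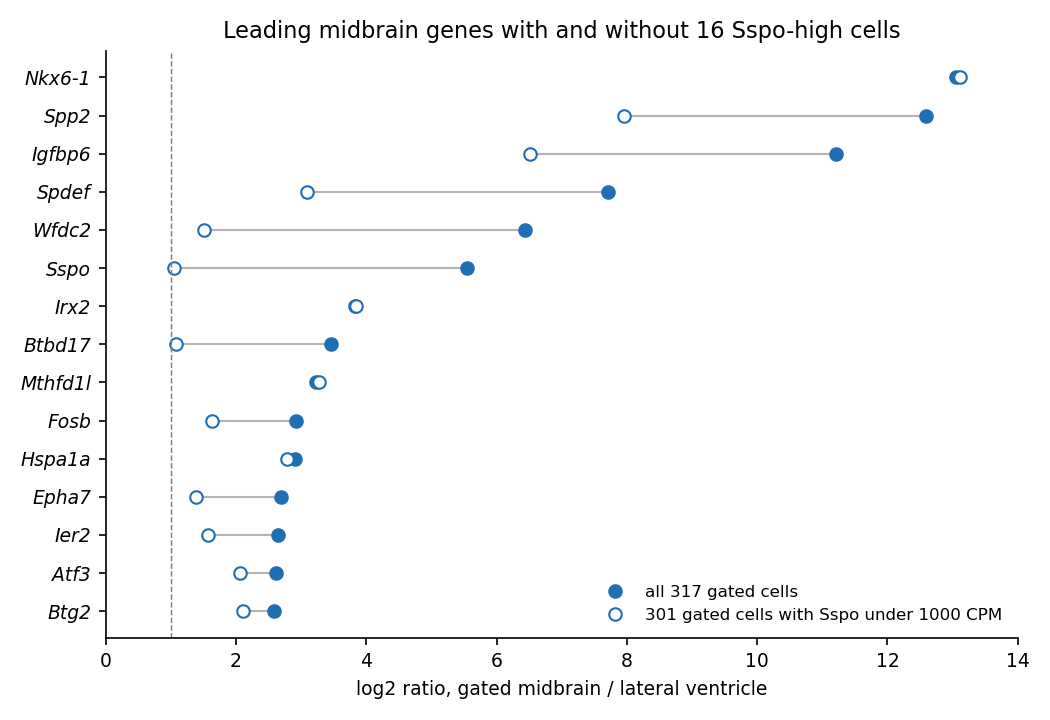
Log2 ratio of gated midbrain over lateral ventricle for the 15 leading midbrain genes, with all 317 gated cells (filled) and with the 301 cells under 1000 CPM of Sspo (open); the dashed line marks 2-fold. Spp2, Igfbp6, Spdef, Wfdc2, Sspo and Btbd17 shift most, and Nkx6-1, Irx2, Mthfd1l and Hspa1a hardly move. The cells left out were chosen by Sspo, so the shift of Sspo follows from that choice.

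Immediate early genes, whose transcription starts quickly after many stimuli, formed the largest called group in the midbrain among the lists examined. Of 25 such genes and stress genes with 10 CPM, 15 exceeded 2-fold in favour of the midbrain and 0 in favour of the lateral ventricle. Over all genes with 10 CPM these shares were 2.79% and 2.29%. The median log2 ratio of the 25 was 1.12. Of the 23 tested, 9 were called, beside 0.682% of all genes tested: Fosb, Hspa1a, Ier2, Atf3, Btg2, Egr1, Fos, Jun and Junb. Without the Sspo-high cells 7 were called, beside 0.532% of all genes tested. Fosb and Ier2 were not, their log2 ratios moving from 2.92 to 1.63 and from 2.65 to 1.57. Summed over the list, levels were 8879 CPM in the midbrain (blocks 6845 to 11807) and 4378 CPM in the lateral ventricle (blocks 3789 to 5547). Without the Sspo-high cells the midbrain sum was 7906 CPM. The midbrain cells under the gate summed to 34755 CPM, the third ventricle to 5606 CPM and the spinal cord to 10337 CPM. The whole spinal cord sample was thus above the gated midbrain cells, and the lateral ventricle was lowest of these 5 sets of cells.

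Fos, a subunit of the AP-1 factor, had midbrain blocks of 1968 to 4176 CPM with a median of 2238 and lateral ventricle blocks of 527, 1266 and 593 CPM. It was 3.20-fold higher in the midbrain and was read in 95.3% of midbrain and 59.2% of lateral ventricle cells. Egr1, a zinc finger factor of the same response, had blocks of 640 to 1515 CPM against 147, 240 and 215 CPM. Its ratio was 4.44-fold, and 3.52-fold without the Sspo-high cells. Atf3, a stress-induced factor of the ATF family, had blocks of 133 to 574 CPM with a median of 236, against 47.7, 43.2 and 56.3 CPM. Its ratio was 6.15-fold (6.01 to 6.28) and 4.17-fold without the Sspo-high cells. Btg2, an antiproliferative early gene, had blocks of 157 to 745 CPM with a median of 272, against 44.3, 77.8 and 69.6 CPM. Its ratio was 5.98-fold, and 4.33-fold without those cells.

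Hspa1a, an inducible HSP70 chaperone, had midbrain blocks of 70.1 to 259 CPM with a median of 116, and lateral ventricle blocks of 22.7, 29.0 and 8.06 CPM. The ratio was 7.48-fold (7.23 to 7.74). Its near-identical copy Hspa1b stood at 26.5 and 4.70 CPM, and reads could be split between the 2 genes. Among other chaperones, Dnajb1, of the HSP40 family, had 356 CPM in midbrain and 229 CPM in lateral ventricle cells with overlapping blocks. Hsp90aa1 had 1468 CPM in midbrain and 1600 CPM in lateral ventricle cells, and Hspa8 had 117 and 188 CPM.

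**Figure D4:**
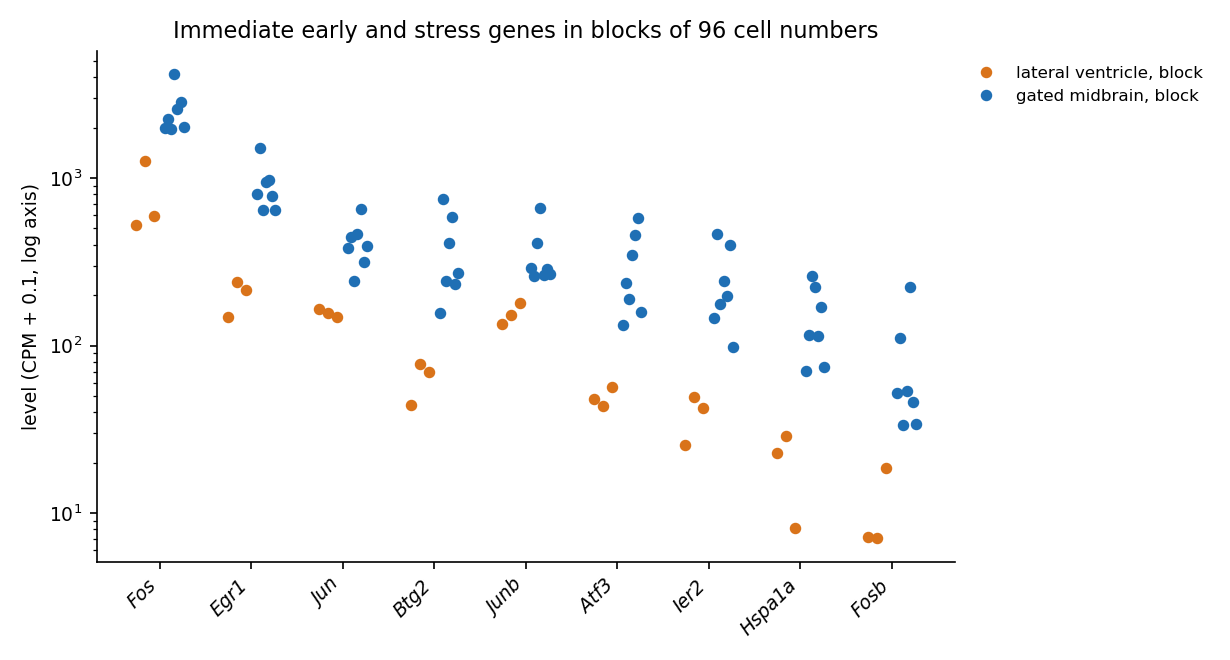
Levels of 9 immediate early and stress genes (CPM + 0.1, log axis); each point is a block of 96 cell numbers, blue for gated midbrain and orange for lateral ventricle. The 9 are the called genes of the list. A call required blocks that do not overlap, so every blue block lies above every orange block by that choice. For Fos the lowest midbrain block had 1968 CPM and the highest lateral ventricle block 1266 CPM.

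The promoters of these genes show which response elements they carry close to the start site. The cyclic AMP response element (CRE), bound by CREB and ATF factors, has TGACG as its core, and heat shock factor binds pairs of GAA and TTC set apart by 2 bases. Windows of 250 bases before the start site, from RefSeq on GRCm38.p6, were searched on both strands for 7 of the 9 called genes. Ier2 had no window in the set used, and Egr1 was left out by choice. A called gene counted if any of its windows matched, while the shares over all genes are per window. The 2 kinds of share are therefore not alike. TGACG was in 5 of the 7, beside 17.8% of 32851 windows of all genes. The full CRE, which holds TGACG on both strands, was in 1 of the 7, beside 1.55% of all windows. The heat shock element was in 2 of the 7, beside 6.69%. A match is a description of the letters and not evidence of binding. The windows of Fos (chr12:85473640-85473889, plus strand), Btg2 (chr1:134079156-134079405, minus strand) and Hspa1a (chr17:34972157-34972406, minus strand) are shown 5′ to 3′ on the gene's strand because they hold the 3 kinds of match. Capitals mark TGACG in Fos, the full CRE in Btg2 and the heat shock element in Hspa1a.
Fos: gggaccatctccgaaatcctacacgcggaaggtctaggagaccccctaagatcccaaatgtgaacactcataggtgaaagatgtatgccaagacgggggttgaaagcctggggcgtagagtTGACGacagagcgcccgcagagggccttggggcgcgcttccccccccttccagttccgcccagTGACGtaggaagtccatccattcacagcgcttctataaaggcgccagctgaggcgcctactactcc
Btg2: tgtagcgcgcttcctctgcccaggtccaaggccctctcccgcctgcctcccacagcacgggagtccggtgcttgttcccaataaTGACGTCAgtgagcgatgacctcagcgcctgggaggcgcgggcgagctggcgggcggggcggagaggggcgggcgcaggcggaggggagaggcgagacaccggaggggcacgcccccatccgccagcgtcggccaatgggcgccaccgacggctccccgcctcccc
Hspa1a: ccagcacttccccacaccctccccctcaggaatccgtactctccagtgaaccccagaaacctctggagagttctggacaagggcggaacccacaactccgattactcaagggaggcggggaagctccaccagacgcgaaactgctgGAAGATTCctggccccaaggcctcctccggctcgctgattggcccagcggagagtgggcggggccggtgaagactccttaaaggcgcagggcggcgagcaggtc
In Fos the matches begin 129 and 66 bases before the start site, in Btg2 the match begins 166 bases before it and in Hspa1a 104 bases before it.

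Several further genes were called for the midbrain. Mthfd1l (chr10:3973118-4167081, plus strand), a mitochondrial enzyme of folate metabolism, had midbrain blocks of 55.6 to 108 CPM with a median of 90.9 and lateral ventricle blocks of 7.20, 3.59 and 18.0 CPM. It was 9.36-fold higher (8.91 to 9.84) and was read in 39.7% of midbrain and 10.4% of lateral ventricle cells. Midbrain cells under the gate held it at 2.10 CPM and the Sspo-high gated cells at 16.9 CPM. Ptn, the growth factor pleiotrophin, had midbrain blocks of 19.1 to 76.3 CPM against 5.23, 4.64 and 7.35 CPM, a ratio of 5.67. Slc14a1, a urea transporter, stood at 187 and 45.6 CPM, and Slc4a4, a sodium bicarbonate cotransporter, at 43.7 and 12.4 CPM. These were the 2 called for the midbrain among 22 solute carriers and channels tested, beside 0.682% of all genes tested, and the median log2 ratio of the 28 with 10 CPM was 0.20. Slc14a1 reached 266 CPM around the third ventricle, 1058 CPM among spinal cord cells and 76.0 CPM in midbrain cells under the gate. For Slc4a4 these sets of cells had 77.7, 81.0 and 167 CPM, all above the gated midbrain. Among the samples of the Foxj1 line, both genes were lowest in the lateral ventricle. Of 16 interferon and MHC class I genes tested, 2 were called for the midbrain (0.682% of all genes tested), and the median log2 ratio of the 24 with 10 CPM was 0.05. Ifitm1, an interferon-induced membrane protein, stood at 112 CPM in the midbrain (blocks 58.9 to 204) against blocks of 28.7, 40.8 and 20.8 CPM. H2-T23, a nonclassical MHC class I gene, was 2.69-fold higher in the midbrain. Ifitm3, of the same family as Ifitm1, stood at 615 and 618 CPM.

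Tagln, Apoe and Etnppl were among the genes called for the lateral ventricle. Tagln (chr9:45929619-45936058, minus strand), which encodes the actin-binding protein transgelin, had lateral ventricle blocks of 53.4, 62.0 and 205 CPM and midbrain blocks of 0.0581 to 8.54 CPM. It was 18.4-fold higher (17.4 to 19.4) and was read in 27.5% of lateral ventricle and 6.31% of midbrain cells. Acta2, smooth muscle actin, was 3.60-fold higher in the lateral ventricle but was not called, as its block of 287 CPM lay below the highest midbrain block of 364 CPM. Myl9, a myosin light chain, stood at 458 and 213 CPM with blocks that also met. Among the 66 lateral ventricle cells with Tagln reads, 57 also had Acta2 reads, which 173 of all 240 cells had. The mural cell markers Pdgfrb and Vtn were at 0.11 CPM and at 0 reads in lateral ventricle cells. Of 12 smooth muscle genes tested, 1 was called (0.75% of all genes tested), and Cnn3, Vim and Cald1 were within 2-fold.

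Apoe, the main apolipoprotein of the brain, had lateral ventricle blocks of 11583, 15213 and 13216 CPM and midbrain blocks of 4125 to 7005 CPM with a median of 4865. Its level was 2.61-fold higher in the lateral ventricle, at 13254 CPM against 5082 CPM. It was read in nearly every cell of both groups, so the difference was in level and not in the share of cells. Its neighbour Apoc1 stood at 34.3 and 9.25 CPM. Etnppl, an enzyme of phosphoethanolamine breakdown, had lateral ventricle blocks of 74.8, 24.8 and 70.7 CPM and at most 8.92 CPM in a midbrain block, and was 27.3-fold higher. Cyp4f15, a cytochrome of fatty acid hydroxylation, was 5.88-fold higher and Mgll, the lipase that breaks down the endocannabinoid 2-arachidonoylglycerol, 5.53-fold higher. Of 18 retinoid, steroid and lipid genes tested, 2 were called in each direction. Over all genes tested, 0.682% were called for the midbrain and 0.75% for the lateral ventricle. The median log2 ratio of the 23 lipid list genes with 10 CPM was 0.08. Fabp5, a fatty acid binding protein, was called for the midbrain at 79.8 against 39.9 CPM, a ratio that lies at the 2-fold threshold. Dbi and Clu, among the most abundant transcripts of both groups, were within 2-fold.

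Signalling genes called for the lateral ventricle were few. S1pr3, a receptor for sphingosine 1-phosphate, had blocks of 218, 77.7 and 136 CPM against midbrain blocks of 2.73 to 40.0 CPM with a median of 22.4, and a ratio of 6.35 (6.17 to 6.53). It was read in 69.6% of lateral ventricle and 29.0% of midbrain cells. Nppc, the natriuretic peptide CNP, was 5.13-fold higher, at 39.3 against 7.66 CPM. Sfrp5, a secreted Wnt antagonist, stood at 49.1 against 17.6 CPM. It was the 1 called among 15 Wnt pathway genes tested, beside 0.75% of all genes tested. The median log2 ratio of the 17 Wnt pathway genes with 10 CPM was -0.12. Id2, a target of BMP signalling, stood at 186 against 77.7 CPM (2.40-fold, and 2.79-fold without the Sspo-high cells). It was the 1 called among 11 genes of the BMP and TGF-beta pathway tested, beside 0.75% of all genes tested. Without the Sspo-high cells Id1 and Id3, of the same family, were called too, at log2 ratios of -1.45 and -2.03. With them the ratios were 0.57 and -0.90. Around the third ventricle Nppc stood at 65.9 CPM, Sfrp5 at 72.6 CPM and Id2 at 174 CPM. Nppc and Sfrp5 were thus above their lateral ventricle levels, and Id2 was near its own. FGF (6 genes with 10 CPM) and Notch (11 genes) had 0 calls in either direction. Sncg, gamma-synuclein, had blocks of 411, 361 and 493 CPM against 41.0 to 212 CPM. It was read in 84.2% of lateral ventricle cells (78.9 to 88.5) and 31.5% of midbrain cells (26.5 to 37.0).

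Motile cilium genes differed by less than 2-fold, with a small lean to the gated midbrain cells. Of 54 such genes with 10 CPM, 0 were called in either direction, all 54 were within 2-fold, and the median log2 ratio was 0.15. The ratio was above 0 for 41 of the 54, beside 5361 of all 9977 genes with 10 CPM. The list summed to 29592 CPM in the midbrain (blocks 28411 to 31334) and 26911 CPM in the lateral ventricle (blocks 25946 to 28285). Tppp3, a tubulin-binding protein, stood at 3394 and 2662 CPM, and Rsph1, of the radial spoke, at 2137 and 2301 CPM. The midbrain levels were shaped by the Ccdc153 gate and are a description. The 11 multiciliogenesis regulators with 10 CPM, among them Foxj1, Rfx2, Rfx3 and Myb, were also all within 2-fold. Sox9 and the NFI factors, which the series set out to study, were within 2-fold as well. Sox9 had midbrain blocks of 1076 to 1552 CPM and lateral ventricle blocks of 1724, 1366 and 1298 CPM. Midbrain and lateral ventricle cells had 253 and 353 CPM of Nfia, 97.9 and 123 CPM of Nfib and 135 and 123 CPM of Nfix. Of 12 SOX and NFI genes with 10 CPM, 0 were called and the median log2 ratio was 0.04.

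Spinal cord cells of the same line and cells around the third ventricle gave further levels of these genes, from 1 sample each. Of the spinal cord cells, 75 had Y-linked reads without Xist and 1 had Xist alone, so the sexes were not represented there as in the brain samples. Six3 (42.4 CPM), Etnppl (49.5 CPM), Tagln (95.6 CPM), S1pr3 (161 CPM), Sncg (462 CPM) and Apoe (11886 CPM) were in the third ventricle close to their lateral ventricle levels. Emx1 (4.21 CPM), Dmrt3 (0.00491 CPM), Cyp4f15 (2.93 CPM) and Larp1b (3.83 CPM) were not. Among midbrain genes, Mthfd1l stood at 125 CPM and Slc14a1 at 1058 CPM in the spinal cord. Irx2 and Ptn were low there, at 2.45 and 3.37 CPM.

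**Figure D5:**
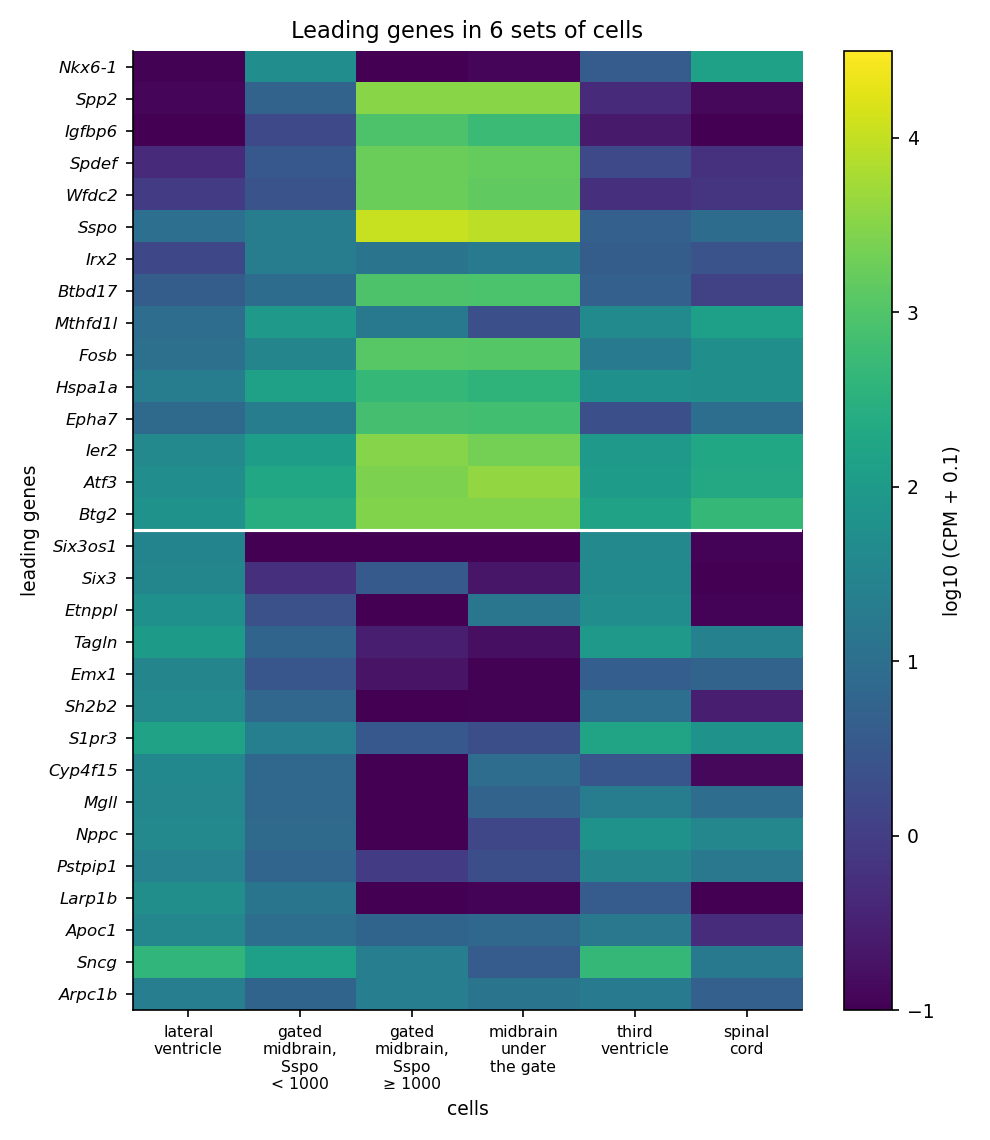
Colour gives the level (log10 of CPM + 0.1) of the 15 leading midbrain genes, above the white line, and the 15 leading lateral ventricle genes, below it, in 6 sets of cells. The Sspo-high gated cells and the midbrain cells under the gate share high levels of Spp2, Igfbp6, Spdef, Wfdc2, Sspo and Btbd17, and the third ventricle resembles the lateral ventricle for Six3, Tagln and Sncg but not for Emx1 or Larp1b.

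Sequencing project and sex differed between blocks, and neither could be separated from the single samples in full. With the 232 gated cells of the first project alone, 74 genes were higher in the midbrain and 71 in the lateral ventricle, including 47 of the 50 and 51 of the 55. This setting had fewer midbrain blocks, which makes the condition on blocks easier to meet. Reads of Y-linked genes without Xist were found in 112 gated midbrain and 68 lateral ventricle cells, and Xist without Y-linked reads in 80 and 79. Lateral ventricle block 2 held 42 cells of the first kind and 2 of the second, while blocks 1 and 3 held 16 and 10 of the first and 39 and 38 of the second. Within cells with Y-linked reads alone, 36 of the 50 midbrain calls and 28 of the 55 lateral ventricle calls were made again. Within cells with Xist alone these numbers were 36 and 37. Blocks can hold different animals, so their spread mixes animals, sexes and plates, which cannot be told apart.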

How the data were processed

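Single cells were sequenced by Smart-seq2 in 5 samples, 1 per group. The authors deposited 2 tables of 16347 genes by 1473 cells. One holds whole-number read counts as deposited, not normalized. The other holds deposited log2 values, equal to log2(count / size factor + 1) within 0.01 for 100% of values, with size factors of 0.0875 to 6.00. STAR 2.3.1o, Seurat 3 and the mm10 build are named per the submitters' processing notes. The counting tool, annotation and size-factor method are not given in the sources used here. Columns were mapped to samples by name start, with 0 left over, and Forebrain was taken as the lateral ventricle and Tanycytes as the third ventricle by anatomy. Cell numbers were taken as well order, so the first 480 midbrain numbers are the first sequencing project. Gene names were matched to GENCODE vM21 (GRCm38) for 15504 genes.

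Counts were summed over member cells and scaled to CPM of all reads in genes. With 1 sample per group nothing was tested, and edgeR 4.0.16 (R 4.3.3) gave TMM factors only. A fold against 0 reads used a floor of 3 reads over the group. No cell was filtered beyond the gate (the shallowest member had 121536 reads) and no doublet caller was run. Because reads carry no molecular identifiers, intervals and floors cover counting error only. Sequence windows came from RefSeq. The calling script was checked on simulated data. Python 3.11.15, numpy 2.4.6, pandas 2.3.3, scipy 1.17.1 and matplotlib 3.10.9 were used.

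Genes were named by rule: the 15 called genes with the largest fold in each direction (sex-linked markers and clone names left out), and up to 6 members of each of 21 gene lists and 13 marker lists, called members first and then those with the highest CPM. List members named beyond that rule (Pax3, En1, Fezf1, Emx2, Fos, Hspa1b, Dnajb1, Hspa8, Hsp90aa1, Myl9, Pdgfrb, Id1) were chosen after their values were seen. Some genes of the lists are not reported here. The members, lists and tests were chosen with earlier results of these data known. Alternatives covered the gate, the Sspo-high cells, the way cells are combined, 4 scalings, the minimums, the fold, the blocks, project, sex and single cells.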

Additional observations from a re-analysis of the deposited data

How the results depend on the processing

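With 1 sample per region, blocks describe spread within a sample, and depth limits genes under 20 CPM. Genes higher in the midbrain numbered 50; they numbered 335 with every midbrain cell, 88 with a gate of 500 CPM, 35 with a gate of 2000 CPM (where Igfbp6, Spdef, Wfdc2, Sspo, Btbd17, Fosb, Epha7 and Ier2 lost their calls), 76 with minimums of 10 CPM and 10% of cells, 20 with 50 CPM and 50%, 110 with no minimum, 23 at 4-fold, 91 without the block condition, 123 in cells with Y-linked reads alone (3 blocks in each region) and 174 in cells with Xist alone (4 midbrain and 2 lateral ventricle blocks). Omitting each block in turn gave between 50 and 73. Genes higher in the lateral ventricle numbered 55; in the same order of settings they numbered 143 with every midbrain cell, 51 with a gate of 2000 CPM (Larp1b not called), 16 with 50 CPM and 50%, 169 with no minimum, 12 at 4-fold, 96 without the block condition, 134 with Y-linked reads alone and 234 with Xist alone. Omitting each block in turn gave between 54 and 113, the highest without lateral ventricle block 2. With fewer blocks the condition on blocks is easier to meet, so a higher count does not by itself mean more differences. Other scalings gave 45 to 49 and 45 to 59. Of 45 named called genes, 40 kept their direction in all 27 settings. Leaving out the gated cells with 100 CPM of Sspo or more, a setting added after the data were seen, turned the log2 ratios of Wfdc2 to -0.29 and Sspo to -0.99. The turn of Sspo follows from that cut, which was made in midbrain cells only. With every midbrain cell, the log2 ratios of Zic4, Id2 and Aldoc turned to 0.36, 0.21 and 0.011. In cells of the first project without the Sspo-high cells, also added later, 55 and 69 genes were called. No paired analysis was possible because each group has 1 sample.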

Other observations

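Further genes set the regions apart in a minority of cells and were picked out after their values were seen. Pdyn, the opioid peptide precursor prodynorphin, stood at 54.6 CPM in gated midbrain cells and 0.282 CPM in the lateral ventricle, and was read in 10.4% of midbrain cells (blocks 0 to 145 CPM). Of its 33 midbrain cells, 3 also had Nkx6-1 reads. Vtn, the plasma and matrix protein vitronectin, had 5315 reads in the gated midbrain and 0 in the lateral ventricle, and 1 cell held 37.6% of them. Ferd3l, a basic helix-loop-helix factor of the ventral midline, had 2149 reads in the gated midbrain and 0 in the lateral ventricle. Its gated midbrain level fell from 8.40 to 1.13 CPM without the 16 Sspo-high cells, and the midbrain cells under the gate held 151 CPM. Dner, a Notch-pathway ligand, had 140 CPM in midbrain and 52.7 CPM in lateral ventricle cells with overlapping blocks, and 943 CPM in spinal cord cells.

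The table holds a row named Egfp, although the labels name a tdTomato reporter for this line. It stood at 88.1 CPM in gated midbrain cells (78.5% with a read) and 41.0 CPM in lateral ventricle cells (65.0%). Cells around the third ventricle had 20.3 CPM and midbrain cells of the Nkx2-2 line 9.62 CPM. Itih3, a hyaluronan-binding inhibitor heavy chain, and Sulf1, a heparan sulfate sulfatase, were called for the midbrain at log2 ratios of 2.05 and 2.04.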
